A study of Mus musculus with 4 samples.

Results

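Type I interferon response genes are the transcripts that a cell raises after alpha or beta interferon binds the receptor IFNAR1-IFNAR2. The receptor's kinases activate STAT2, which acts in a complex with IRF9 that binds interferon-stimulated response elements in promoters. The induced proteins degrade, trap or mark viral RNA and protein, and some of them (IRF7, STAT2, USP18) act back on the pathway. In the thymus, epithelial and dendritic cells make low amounts of interferon without infection, and developing T cells can carry the response genes at rest.

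The list held 39 genes, taken by symbol, of which 38 had a row in the count tables, out of 32285 genes in all. Mx1 was not analysed here. The cells were thymic invariant natural killer T (iNKT) cells, which recognise lipids on CD1d and are sorted with a CD1d multimer loaded with PBS57. Live CD3+ cells bound by that multimer were taken from the thymus of BALB/c mice and of C57BL/6 (B6) mice, both labelled by strain alone, with no treatment, age or sex used here. Droplet libraries were made with a 10x 5' kit, 2 per strain, and nothing in the labels tells if each came from a different animal. P-values therefore measure only the spread between these libraries, which may be technical.

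After filtering, 1864 and 1913 BALB/c cells were kept, against 2328 and 8788 B6 cells, from libraries of 23124810 and 22798414 UMIs for BALB/c, against 20406245 and 82904358 UMIs for B6. The median kept cell had 11014 and 9128 UMIs in BALB/c, against 7004 and 6933 UMIs in B6. Cd3e lay between 1146 and 1209 CPM (a gene's UMIs scaled by the total of the library) in all 4 libraries, and Zbtb16, which encodes the iNKT factor PLZF, between 167 and 401 CPM. Clusters with double-positive thymocyte markers held 9.50% and 8.99% of the kept BALB/c cells, against 7.43% and 3.56% of the B6 cells. The plasmacytoid dendritic marker Siglech had 14 and 2 UMIs in BALB/c and 1 and 0 UMIs in B6, and the myeloid marker Lyz2 had 1 and 4 UMIs in BALB/c and 7 and 21 UMIs in B6. B6 replicate 2 stood apart: its file header names another Cell Ranger version, it held most of the cells, and 32.8% of its kept cells lay in clusters that could not be named, against 0.836% to 10.6% in the other libraries. Few barcodes were shared between libraries, 4 to 33 for any pair.

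Interferon itself was almost absent from these cells. The 18 ligand genes with a row (13 genes named Ifna followed by a number, Ifnb1, Ifnk, Ifne, Ifnl2 and Ifnl3) had 2 UMIs in the 4 libraries together.

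The members were first looked at cell by cell. Each cell was thinned at random to 3000 UMIs so that depth did not decide detection, which left out 221 and 161 BALB/c cells and 360 and 1020 B6 cells that were shallower. Of 10 members chosen as callers (Isg15, Ifit1, Rsad2, Irf7, Usp18, Cmpk2, Rtp4, Zbp1, Ifi44 and Dhx58), the number with at least 1 UMI was counted in each cell. A cell with at least 3 of the 10 on was called a responding cell. The 28 other members played no part in this call and are referred to as held out.

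Responding cells made up 10.7% (175 of 1643 cells; exact 95% binomial interval 9.20% to 12.2%) and 11.3% (198 of 1752; 9.86% to 12.9%) of the BALB/c libraries. In B6 they made up 14.9% (294 of 1968; 13.4% to 16.6%) and 18.6% (1441 of 7768; 17.7% to 19.4%). The strains did not overlap: BALB/c averaged 10.98% ± 0.460 and B6 averaged 16.7% ± 2.55 (SD, n = 2 each), a difference of -5.77 percentage points. With 2 libraries against 2, the exact two-sided permutation test cannot go below p = 0.333, which is the value found. Among the 3 libraries of 1 Cell Ranger version, the 2 BALB/c shares lay below the 14.9% of B6 replicate 1, and the difference was -3.96 points. Without thinning, with BALB/c cells the deeper ones, the difference was 0.63 points in the other direction. The share rests on detection of the callers chosen above. Of these, Ifit1, Rsad2, Irf7 and Cmpk2 were called lower and Ifi44 higher in BALB/c in the comparison of all kept cells below. It is thus not a result separate from those gene differences.

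Up to 8 caller genes, fewer cells were found with each further gene on, and above that number each library had at most 17 cells per count. None of the 10 was on in 50.9% and 52.3% of BALB/c cells, against 48.1% and 41.5% of B6 cells. Exactly 2, just outside the call, were on in 11.8% and 11.1% of BALB/c cells and in 11.03% and 13.3% of B6 cells. Exactly 3, just inside, were on in 4.50% and 4.62% of BALB/c cells and in 7.11% and 7.67% of B6 cells. The call thus sets a threshold within a range of counts. When interferon genes were kept in the clustering, 705 cells formed a cluster led by Ifit3b, Ifit3, Cxcl10, Rsad2 and Ifit1. It held 2 and 9 of the 1864 and 1913 kept BALB/c cells, against 107 and 587 of the 2328 and 8788 B6 cells. Of the marker lists, that of iNKT1 cells scored highest in it, at a mean log2 fold of 0.58. Its leading genes held no iNKT1 marker, and that clustering split iNKT1 cells by strain. Another iNKT1 cluster held 255 and 576 BALB/c cells, against 12 and 1 B6 cells. The counts of the first cluster are therefore not a measure of responding cells by strain.

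**Figure D1:**
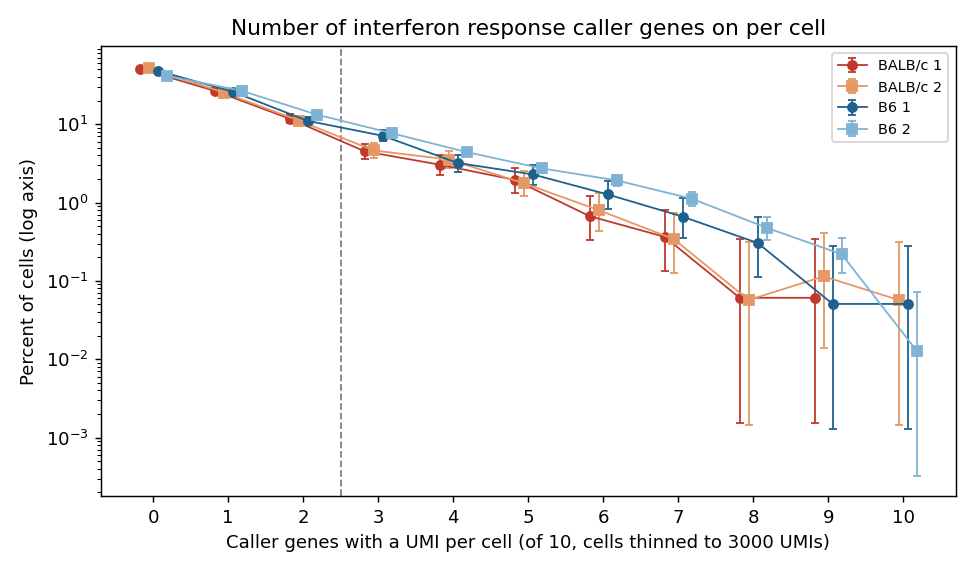
Percent of cells (log axis, exact 95% binomial intervals) by the number of the 10 caller genes with a UMI after thinning to 3000 UMIs, for each library; the dashed line marks the call of a responding cell and points at 0 are not drawn. The share falls with each further gene up to 8, and the B6 libraries lie above the BALB/c libraries at 3 genes and at 5 to 8.

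Background from free RNA was read from double-positive thymocyte-like cells in the same libraries. No such cell was responding among 35 and 69 in BALB/c, which allows shares of up to 8.57% and 4.35%. In B6, 0 of 49 and 1 of 107 were responding, the first of which allows up to 6.12%. These cells were shallower, with median counts of 3577 to 3939 UMIs among those of at least 3000.

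Held-out members followed the callers in every library. Without Shisa5, Ifi27l2a and Sp100, which are the most abundant, the summed level of the other 25 held-out members was 945 and 923 CPM in BALB/c cells with no caller gene on, against 1063 and 1175 CPM in such B6 cells. It was 2136 and 2144 CPM in BALB/c cells with 3 callers on, against 2523 and 2855 CPM in B6. With 5 or more on it was 4919 and 4727 CPM in BALB/c, against 6381 and 6964 CPM in B6. The rise with each further caller gene was present in all 4 libraries, and at every number of callers both BALB/c values lay below both B6 values. These values pool the subsets named below, whose mix differed by strain. Within responding iNKT1-like cells the strains overlapped, with 5423 and 4335 CPM in BALB/c, against 4181 and 5459 CPM in B6. Within responding iNKT2-like cells the sum was 2790 and 2562 CPM in BALB/c, against 3091 and 3400 CPM in B6. Within responding iNKT17-like cells it was 3166 and 3041 CPM in BALB/c, against 3555 and 3411 CPM in B6. Held-out members on per cell averaged 9.59 and 9.47 in responding BALB/c cells and 10.3 and 11.4 in responding B6 cells. In the cells that were not responding the averages were 4.87 and 4.84 in BALB/c, against 5.42 and 5.85 in B6.

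**Figure D2:**
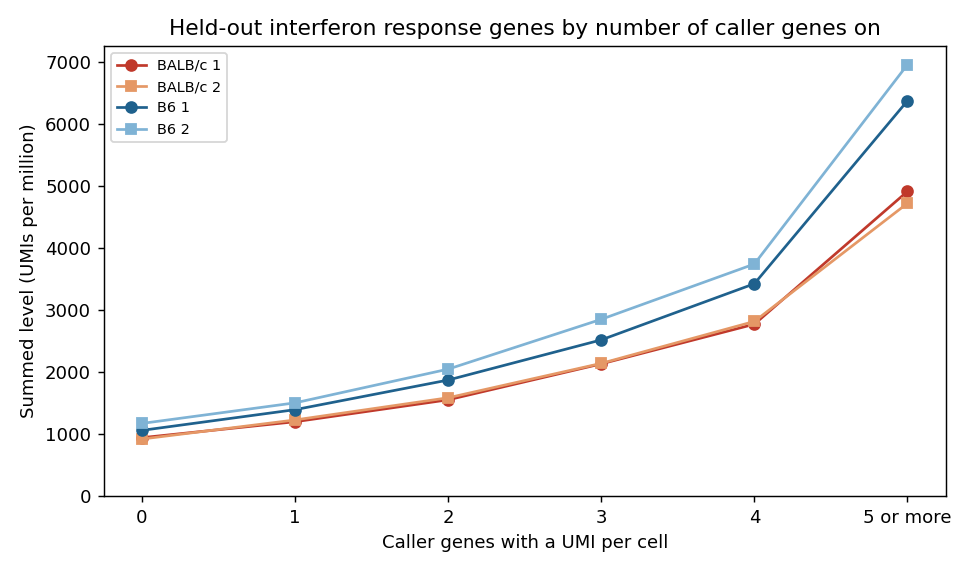
Summed level of 25 held-out members (CPM, from 0) by the number of caller genes on, 1 line per library. Each line rises from about 1000 to between 4727 and 6964 CPM, with both BALB/c lines below both B6 lines at each point. Cells of all subsets are pooled.

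Responding cells were close to the others in depth and mitochondrial share. Their median count was 11930 and 10570 UMIs in BALB/c and 7254 and 7232 UMIs in B6, against 11890 and 9906 UMIs in the other BALB/c cells and 7612 and 7393 UMIs in the other B6 cells. The median mitochondrial share was 2.22% and 2.16% in responding BALB/c cells and 1.81% and 1.76% in responding B6 cells, against 2.13% and 2.09% in the other BALB/c cells and 1.79% and 1.69% in the other B6 cells.

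The 8 myeloid markers summed to 7.17 and 16.1 CPM in responding BALB/c cells and 21.7 and 0.901 CPM in responding B6 cells, against 2.17 and 3.59 CPM in the other BALB/c cells and 3.13 and 1.94 CPM in the other B6 cells. The 7 plasmacytoid dendritic markers, some of which T cells also express, summed to 109 and 101 CPM in responding BALB/c cells and 105 and 87.0 CPM in responding B6 cells, against 48.9 and 73.0 CPM in the other BALB/c cells and 95.7 and 84.0 CPM in the other B6 cells. The myeloid sum was higher in responding cells in 3 of 4 libraries and the plasmacytoid dendritic sum in all 4, and their part in the response genes' levels was not tested.

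Members differed widely in how far their UMIs sat in the responding cells. Among the ISG15 group, Isg15 encodes a ubiquitin-like modifier, Usp18 the protease that removes it and damps the receptor, and Herc6 a ligase for it. Isg15 had 700 and 639 CPM in responding BALB/c cells and 604 and 702 CPM in responding B6 cells, so the strains overlapped. In cells that were not responding it had 74.9 and 70.4 CPM in BALB/c and 50.2 and 57.9 CPM in B6. Usp18 had 114 and 94.6 CPM in responding BALB/c cells and 112 and 118 CPM in responding B6 cells. Isg15 and Usp18 are callers, so the same genes split the cells, and their levels on either side of the call are given as a description only, also between strains.

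**Figure D3:**
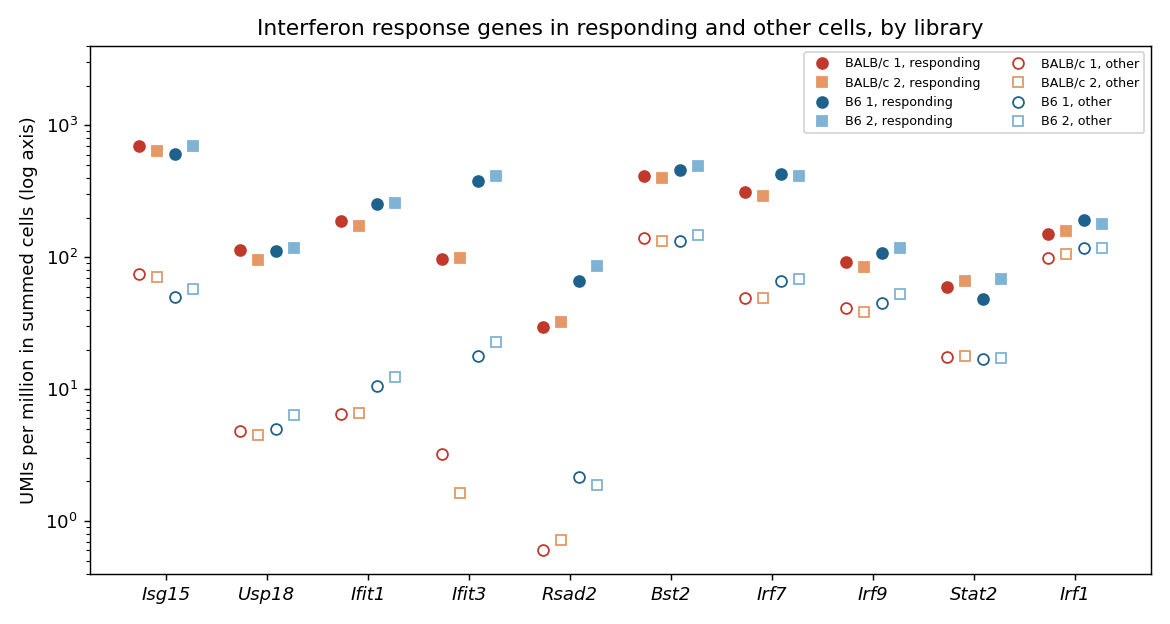
Level (CPM, log axis) of 10 members summed over responding cells (filled) and over the other cells of at least 3000 UMIs (open), with the 2 BALB/c libraries left of the 2 B6 libraries. Isg15, Usp18 and Stat2 overlap between strains in responding cells. Ifit1, Ifit3, Rsad2, Irf7, Irf9 and Irf1 lie lower in BALB/c in both kinds of cell, and Bst2 in responding cells only. The callers among them are a description only. Cells of all subsets are pooled.

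Of the held-out members in the strain tests, Ifit3 and its near copy Ifit3b were the most concentrated: the median ratio of responding to other cells over the 4 libraries was 25.5 for Ifit3 and 28.1 for Ifit3b. Responding cells carried 77.1% and 88.2% of Ifit3 UMIs in BALB/c and 77.6% and 80.5% in B6. In a cell with Ifit3 on, Isg15 was on in 72.9% and 76.9% of cases in BALB/c (48 and 52 such cells) and in 53.3% and 58.8% in B6 (212 and 1142 cells). With Ifit3 off, Isg15 was on in 19.8% and 19.1% of BALB/c cells and 12.3% and 16.3% of B6 cells. At the other end stood Shisa5, whose protein is known in apoptosis, with a median ratio of 1.38, Irf1 with 1.51 and Nmi with 1.52. Shisa5 was on in 89.96% and 88.6% of BALB/c cells and in 93.6% and 95.7% of B6 cells, so it is mainly a transcript of all cells. Stat2 had a median ratio of 3.54, Bst2, which tethers budding virus to the cell surface, 3.16, and Irf9 2.25. Together, responding cells carried 19.2% and 21.0% of all held-out UMIs in BALB/c, against 26.8% and 33.9% in B6, from 10.1% and 11.04% of all UMIs in BALB/c and 14.1% and 18.5% in B6.

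Promoters of the members named by value were taken from RefSeq windows on GRCm38.p6 (mm10), from 250 bases before to 50 bases after each start. They were searched for the core of an interferon-stimulated response element, 2 copies of GAAA with 2 bases of any kind between them, on both strands. Windows existed for 31 members, and 14 of these genes held a match in at least 1 window, against 3.99% of all 27025 genes with a window. By window, 15 of 43 held a match, against 3.44% of all 32851. Matches before the start are in capitals: GAAA copies, or TTTC copies where the match lies on the other strand, with the bases between them. The stretches that hold them are shown for members named by value, some more and some less concentrated in responding cells. Each ends 20 bases past its last match, 5′ to 3′ on the gene's strand.
Isg15, chr4:156200855-156200916, minus strand, 3 overlapping matches: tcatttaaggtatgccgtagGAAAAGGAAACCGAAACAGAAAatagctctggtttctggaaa
Ifit1, chr19:34640765-34640833, plus strand, 2 matches: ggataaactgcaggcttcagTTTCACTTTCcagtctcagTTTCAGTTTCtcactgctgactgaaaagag
Ifit3, chr19:34583353-34583436, plus strand, 2 matches: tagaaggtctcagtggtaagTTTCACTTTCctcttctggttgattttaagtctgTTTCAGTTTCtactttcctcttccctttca
Rsad2, chr12:26456543-26456592, minus strand, 1 match: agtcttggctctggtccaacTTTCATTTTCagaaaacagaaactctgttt
Bst2, chr8:71537567-71537622, minus strand, 2 overlapping matches: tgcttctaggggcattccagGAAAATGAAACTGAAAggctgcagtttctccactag
Stat2, chr10:128270256-128270305, plus strand, 1 match: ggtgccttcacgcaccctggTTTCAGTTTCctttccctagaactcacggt
The stretch of Ifit3b (chr19:34607749-34607832) equals that of Ifit3 in 84 of 84 bases. The windows of Irf7, Irf9 and Irf1 held no match. Those of Cmpk2 and Ifi44 held none either, at median ratios of responding to other cells of 14.0 and 14.95. The window of Lgals9 (1.72) held 2 matches and 1 window of Shisa5 (1.38) held 1. Whether matches go with concentration in responding cells was not tested.

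The strains were then compared over the summed UMIs of all kept cells. Of 37 members tested, 10 were lower and 1 was higher in BALB/c at an edgeR adjusted p below 0.05, against 3.72% of all 12882 genes lower and 3.67% higher. The median log2 fold change (BALB/c over B6) was -0.44 over the members and -0.02 over all genes, and 36 of the 37 were negative, against 51.9% of all genes. Phf11d, which had few UMIs, did not pass the filter on low counts. These calls rest on both BALB/c libraries: without either one, no member passed the adjusted threshold, although 11 and 10 were below an unadjusted p of 0.05 without BALB/c replicate 1 and 2. Without B6 replicate 1 the test called 30 lower and 1 higher, and without B6 replicate 2, 15 lower and 1 higher. DESeq2 called 14 lower and 1 higher.

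All 3 IFIT genes, which encode proteins that bind foreign RNA ends, fell in BALB/c. Ifit3 had 12.5 and 12.3 CPM in BALB/c, against 67.7 and 94.9 CPM in B6, a log2 fold change of -2.68 ± 0.18 (SE, edgeR adjusted p = 0.0127). Ifit3b had 8.28 and 8.53 CPM in BALB/c, against 19.95 and 34.8 CPM in B6 (-1.66 ± 0.28, adjusted p = 0.0448). Ifit1 had 24.6 and 24.6 CPM in BALB/c, against 44.2 and 57.7 CPM in B6 (-1.01 ± 0.14, adjusted p = 0.0322). The groups did not overlap for any of the 3, which was also so, with BALB/c lower, for 33.9% of all genes tested. Ifit3 and Ifit3b lie near each other on chromosome 19. They share 51.2% of the 50-base windows of Ifit3 transcripts, so the split of reads between them is uncertain.

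Among the antiviral effectors, 4 of 9 tested fell and none rose in BALB/c. Rsad2 encodes viperin, which makes a chain-terminating nucleotide, and Cmpk2, its neighbour on chromosome 12, a mitochondrial nucleotide kinase. Rsad2 had 3.47 and 4.13 CPM in BALB/c, against 11.2 and 17.9 CPM in B6 (-1.90 ± 0.27, edgeR adjusted p = 0.0355). Cmpk2 had 7.35 and 6.56 CPM in BALB/c, against 12.5 and 17.1 CPM in B6, and was called by a narrow margin (-1.05 ± 0.19, adjusted p = 0.0496). Isg20, an exonuclease for single-stranded RNA, had 47.2 and 56.5 CPM in BALB/c, against 100 and 117 CPM in B6 (-1.03 ± 0.13, adjusted p = 0.0296). Eif2ak2, which encodes the kinase PKR, had 17.5 and 18.1 CPM in BALB/c, against 30.8 and 42.2 CPM in B6 (-0.999 ± 0.160, adjusted p = 0.0422). Bst2 had 166 and 161 CPM in BALB/c, against 174 and 209 CPM in B6, and did not pass the test (-0.19 ± 0.10, adjusted p = 0.274).

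Of 6 transcription factors and partners, only Irf7 was called in this test. Irf7, which amplifies interferon transcription, had 76.2 and 75.1 CPM in BALB/c, against 116 and 131 CPM in B6 (-0.67 ± 0.08, edgeR adjusted p = 0.0291). Irf9 had 45.9 and 43.3 CPM in BALB/c, against 53.7 and 64.2 CPM in B6 (adjusted p = 0.116). Irf1, which also responds to interferon gamma, had 104 and 110 CPM in BALB/c, against 129 and 130 CPM in B6 (adjusted p = 0.152). Stat2 had 22.5 and 23.5 CPM in BALB/c, against 21.9 and 27.2 CPM in B6, so the strains overlapped (adjusted p = 0.797). Isg15 overlapped as well, with 136 and 131 CPM in BALB/c, against 125 and 174 CPM in B6 (adjusted p = 0.64), and Usp18, at 15.8 and 14.3 CPM in BALB/c and 19.9 and 27.4 CPM in B6, was not called (adjusted p = 0.108).

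Sp100, a nuclear body protein, and Shisa5 fell by 0.54 and 0.44 on the log2 scale (SE 0.08 and 0.07, edgeR adjusted p = 0.0367 and 0.0442). Both were higher in iNKT1-like than in iNKT2-like cells in all 4 libraries, 1.5 to 1.93 times for Sp100 and 1.61 to 1.77 times for Shisa5. BALB/c held a smaller share of iNKT1-like cells, and the part of this share in the fall of the 2 genes was not tested. With the 3 mature subsets (iNKT1-like, iNKT2-like, iNKT17-like) weighted equally, the log2 ratio of the strain means was -0.13 for Sp100 and -0.11 for Shisa5. For Ifit3 this weighting gave -1.87 and for Ifit1 -0.49, with 34 of 38 members negative and a median of -0.36. Ifi44, whose function is little known, was the only member called higher in BALB/c: 7.79 and 7.18 CPM in BALB/c, against 2.80 and 2.56 CPM in B6 (1.52 ± 0.20, adjusted p = 0.0301). The 2 RNA sensors, Ifih1 and Dhx58, and the 4 genes of ADP-ribosylation (Parp9, Parp12, Parp14, Dtx3l) gave no call, with a median log2 fold change of -0.415 in each group.

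The same test was run without the responding cells, which asks whether the difference remains in the bulk of cells. It used the kept cells of at least 3000 UMIs, so the shallower cells were left out as well. Of 37 members, 4 were lower and none higher in BALB/c, against 3.33% and 3.53% of 12622 genes; 17 were below an unadjusted p of 0.05, and DESeq2 called 11 lower and 2 higher. The 4 were Ifit3, Isg20, Eif2ak2 and Sp100, all held out of the call. Ifit3 had 3.23 and 1.64 CPM in BALB/c, against 17.9 and 22.8 CPM in B6 (-3.02 ± 0.35, edgeR adjusted p = 0.0258). Isg20 had 35.0 and 41.7 CPM in BALB/c, against 68.3 and 73.4 CPM in B6 (-0.85 ± 0.12, adjusted p = 0.0338). Eif2ak2 had 13.6 and 13.1 CPM in BALB/c, against 23.2 and 27.4 CPM in B6 (-0.89 ± 0.12, adjusted p = 0.0309). None of these calls was made without BALB/c replicate 1 or 2, where 6 and 7 members were below an unadjusted p of 0.05. The median over the members was -0.25, with 29 of 37 negative. For the 27 held-out members tested, the median was -0.24 in these cells and -0.42 in all kept cells.

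**Figure D4:**
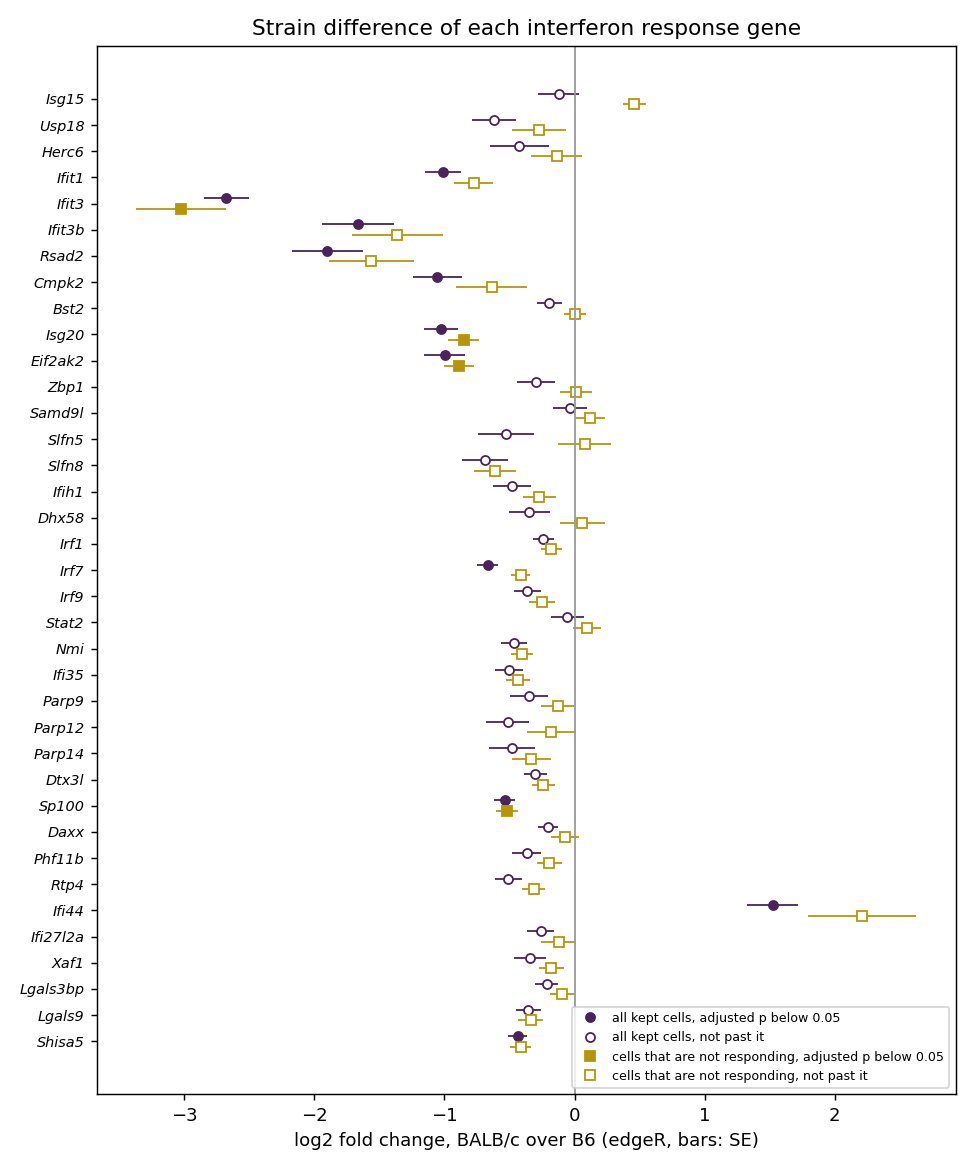
Log2 fold change (BALB/c over B6, edgeR, bars are SE) of the 37 members tested. Circles are all kept cells and squares the cells of at least 3000 UMIs that are not responding, with filled symbols past an adjusted p of 0.05. All but Ifi44 are negative in all kept cells. All but Ifit3, Ifi44, Isg15, Samd9l and Stat2 lie nearer to 0 without the responding cells. The callers among them are lowered in both strains by the selection itself, so their squares are a description only.

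As a summed level, the 28 held-out members had 2809 and 2782 CPM in the BALB/c cells that were not responding, against 3483 and 3596 CPM in such B6 cells. The mean was 2796 ± 19.3 CPM in BALB/c and 3539 ± 79.4 CPM in B6 (SD, n = 2 each), a log2 ratio of -0.34, with an exact two-sided permutation p of 0.333, the smallest possible. In cells with none of the callers on, the log2 ratio was -0.30, and without the 3 most abundant members it was -0.30 (1098 CPM in BALB/c and 1348 CPM in B6). Shisa5 and Sp100, at 897 and 220 CPM in BALB/c against 1224 and 323 CPM in B6 in these cells, made up much of the gap. With the 3 subsets weighted equally, an alternative added after the data were seen, the log2 ratio was -0.18, from 3073 and 2987 CPM in BALB/c, against 3374 and 3485 CPM in B6. Without the 3 most abundant members it was -0.24 in this weighting. The level in the remaining cells was thus lower in BALB/c in each of these summaries, by less when the subsets counted equally. Within iNKT17-like cells the strains overlapped, with 2830 and 2765 CPM in BALB/c, against 2760 and 2999 CPM in B6.

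Within responding cells, a comparison added after the data were seen, 4 members were lower and 1 was higher in BALB/c of 37 tested, against 2.9% and 2.63% of 9813 genes. This comparison pools the subsets named below, whose mix differed by strain. Ifit3 had 96.3 and 98.7 CPM in BALB/c, against 378 and 414 CPM in B6 (-2.002 ± 0.124, edgeR adjusted p = 0.00147). Within responding iNKT1-like cells Ifit3 had 344 and 317 CPM in BALB/c, against 513 and 651 CPM in B6. Within responding iNKT2-like cells it had 94.97 and 44.86 CPM in BALB/c, against 121 and 170 CPM in B6. Within responding iNKT17-like cells it had 37.05 and 33.17 CPM in BALB/c, against 98.76 and 158 CPM in B6. Ifit3b had 64.0 and 60.3 CPM in BALB/c, against 120 and 155 CPM in B6, Rsad2 29.6 and 32.2 CPM in BALB/c, against 66.3 and 86.1 CPM in B6, and Isg20 161 and 183 CPM in BALB/c, against 311 and 321 CPM in B6 (adjusted p = 0.013 for Ifit3b and 0.0221 for Isg20). Ifi44 was the member called higher, with 46.6 and 44.6 CPM in BALB/c, against 17.98 and 10.1 CPM in B6. Rsad2 and Ifi44 are callers, so these cells were picked by having them on and their values here are a description. Without BALB/c replicate 1 no member was called and without BALB/c replicate 2 only 1 was. Of the held-out members, Stat2 had 59.6 and 66.5 CPM in responding BALB/c cells and 48.7 and 68.0 CPM in responding B6 cells, so the strains overlapped.

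The subsets were clusters named from marker genes, with interferon genes left out of the clustering: iNKT1-like cells (Tbx21, Ifng), iNKT2-like cells (Zbtb16, Il4) and iNKT17-like cells (Il23r, Blk). They made up 15.9%, 47.3% and 17.2% of kept cells in BALB/c replicate 1 and 33.7%, 36.1% and 9.67% in BALB/c replicate 2. In B6 they made up 64.2%, 7.39% and 2.92% in replicate 1 and 45.7%, 12.2% and 1.92% in replicate 2. Different clusters held most of a subset in different libraries. Nearly all BALB/c iNKT1-like cells, and 1429 of 1494 in B6 replicate 1, lay in the clusters numbered 11 and 13, whereas 90.1% of those of B6 replicate 2 lay in clusters 15, 16 and 18. Cluster 15, led by Cxcl10, Cables1 and Ifit3, was 36.2% responding in B6 replicate 2. Most iNKT2-like cells lay in cluster 3 in BALB/c and B6 replicate 1 and in cluster 7 in B6 replicate 2.

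In iNKT1-like cells, 8.96% (25 of 279) and 11.9% (75 of 629) were responding in BALB/c, against 16.3% (238 of 1460) and 19.6% (767 of 3923) in B6. In iNKT2-like cells the shares were 11.3% (99 of 878) and 12.4% (85 of 688) in BALB/c, against 18.7% (32 of 171) and 27.3% (291 of 1065) in B6. In both subsets the BALB/c libraries lay below the B6 libraries, and each exact two-sided permutation p was 0.333. Restricted to clusters with at least 20 cells in every library, the mean shares were 10.4% in BALB/c and 17.5% in B6 for iNKT1-like cells, and 11.9% in BALB/c and 21.4% in B6 for iNKT2-like cells. The iNKT1-like difference of -7.48 points was -3.05 with subsets by marker score (12.3% in BALB/c and 15.3% in B6) and -4.02 at a Leiden resolution of 1.5. The iNKT2-like difference of -11.2 points was -6.90 without B6 replicate 2. In iNKT17-like cells the strains overlapped, with 12.3% (39 of 317) and 12.5% (23 of 184) in BALB/c, against 6.06% (4 of 66) and 16.9% (28 of 166) in B6. The iNKT0-like precursors had 7.55% and 1.47% in BALB/c, against 1.72% and 6.94% in B6, from 53 and 68 BALB/c cells and 58 and 144 B6 cells. Responding cells were thus found in each of the 3 mature subsets in all 4 libraries, while the iNKT0-like shares rest on 1 to 10 responding cells a library.

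**Figure D5:**
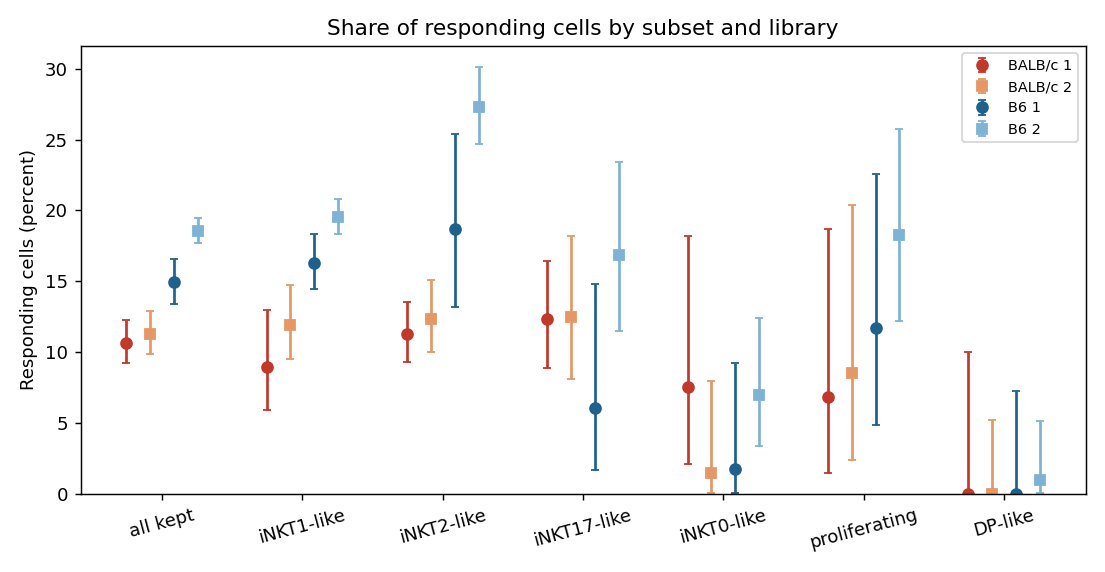
Share of responding cells (percent, from 0) in all kept cells of at least 3000 UMIs and in each class, by library, with exact 95% binomial intervals that cover counting error only. BALB/c lies below B6 in all kept cells and in iNKT1-like and iNKT2-like cells, the strains overlap in iNKT17-like and iNKT0-like cells, and double-positive thymocyte-like (DP-like) cells lie at or near 0.

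The strain difference of single members was called most often in iNKT2-like cells. There, 16 of 37 members were lower and none higher in BALB/c, against 6.22% and 4.89% of 11794 genes. Rsad2 had 3.05 and 3.85 CPM in BALB/c, against 15.4 and 16.2 CPM in B6 (-2.09 ± 0.20, edgeR adjusted p = 0.00441). Ifit3 had 12.4 and 5.98 CPM in BALB/c, against 38.4 and 50.1 CPM in B6 (-2.16 ± 0.32, adjusted p = 0.0148). Eif2ak2 had 17.8 and 17.8 CPM in BALB/c, against 40.8 and 46.4 CPM in B6 (-1.20 ± 0.11, adjusted p = 0.00378). Phf11b, a PHD finger gene that shares sequence with its neighbours, had 68.8 and 74.5 CPM in BALB/c, against 139 and 145 CPM in B6 (-0.89 ± 0.09, adjusted p = 0.00592). Ifit1, Isg20, Irf7, Slfn5, Ifi35, Lgals9, Rtp4 and Cmpk2 fell as well (adjusted p from 0.00863 to 0.0208), as did Xaf1, Nmi, Ifit3b and Lgals3bp (adjusted p from 0.0237 to 0.0374). Without BALB/c replicate 1 or 2, 2 members were called; without B6 replicate 1, 30 were lower and 3 higher; and without responding cells, 9 were lower and 1 higher.

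In iNKT1-like cells only Ifit3 and Eif2ak2 were called, both lower in BALB/c, of 37 tested, against 1.9% of 10724 genes lower and 2.12% higher. Ifit3 had 36.9 and 37.5 CPM in BALB/c, against 100 and 147 CPM in B6 (-1.69 ± 0.18, edgeR adjusted p = 0.00471). Eif2ak2 had 9.75 and 15.1 CPM in BALB/c, against 28.2 and 43.5 CPM in B6 (-1.42 ± 0.27, adjusted p = 0.0378). Irf7 overlapped, with 155 and 131 CPM in BALB/c, against 140 and 166 CPM in B6. The count moved with the libraries: none was called without BALB/c replicate 1 or 2, 27 were lower and 1 higher without B6 replicate 1, and 10 were lower and 1 higher without B6 replicate 2.

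In iNKT17-like cells 1 member was lower and 1 higher of 36 tested, against 2.28% and 2.39% of 9404 genes. Ifit3 had 6.89 and 4.73 CPM in BALB/c, against 11.2 and 33.8 CPM in B6 (-2.04 ± 0.44, edgeR adjusted p = 0.0335). Samd9l, a gene that restrains translation, had 72.5 and 66.6 CPM in BALB/c, against 30.3 and 44.3 CPM in B6 (0.85 ± 0.18, adjusted p = 0.0298). The median over members was -0.11, but 0.27 without B6 replicate 2, and DESeq2 called none, with 2 below an unadjusted p of 0.05. Neither call was made without BALB/c replicate 1 or 2, and Ifit3 was not called without B6 replicate 2.

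Whether the strain effect differed between iNKT1-like and iNKT2-like cells was tested directly, with the library as a block. Of 38 members, 6 had a higher effect (BALB/c over B6) in iNKT1-like cells and 1 a lower one, against 5.36% and 4.96% of 12361 genes. For Irf7 the effect in iNKT1-like cells exceeded that in iNKT2-like cells by 0.62 ± 0.09 (edgeR adjusted p = 1.53e-05). In iNKT2-like cells Irf7 had 70.0 and 58.9 CPM in BALB/c, against 107 and 116 CPM in B6, beside the overlapping levels in iNKT1-like cells. The difference was 0.57 ± 0.14 for Ifit1, 0.46 ± 0.12 for Phf11b, 0.38 ± 0.11 for Isg20 and 0.81 ± 0.22 for Slfn5 (adjusted p = 0.00751, 0.00901, 0.0166 and 0.0146). It was 0.32 ± 0.09 for Lgals9, which encodes galectin-9, and -0.38 ± 0.11 for Samd9l (adjusted p = 0.0142 and 0.0268). DESeq2 called only that of Irf7, and 3 to 10 were called when 1 library was left out, the fewest without BALB/c replicate 2.

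Members also had levels of their own across the subsets of 1 library. In iNKT1-like cells, 17 of 38 members were higher than in iNKT2-like cells in all 4 libraries, against 29.1% of 12361 genes, and 6 were lower in all 4, against 31.9%. Ifit3 was 2.97 and 6.27 times higher in iNKT1-like cells in BALB/c and 2.61 and 2.94 times higher in B6. Irf7 was 2.21 and 2.22 times higher in BALB/c and 1.30 and 1.43 times higher in B6. Phf11b went the other way, at 0.641 and 0.626 times its iNKT2-like level in BALB/c and 0.4 and 0.462 times in B6. Isg15 did too, at 0.634 and 0.749 times in BALB/c and 0.670 and 0.855 times in B6. The members therefore had no common order over subsets.

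Other genes of the pathway were counted from fixed lists in all kept cells. Of 9 receptor and signalling genes, 1 was lower and none higher in BALB/c: Ifnar2, a chain of the interferon receptor, had 53.8 and 55.1 CPM in BALB/c, against 76.4 and 85.1 CPM in B6 (-0.53 ± 0.08, edgeR adjusted p = 0.041). Ifnar1 (adjusted p = 0.0746) and Jak1 (adjusted p = 0.0599) were not called. Of 9 inhibitors tested, Socs3, which blocks cytokine receptors, rose in BALB/c (1.57 ± 0.26, adjusted p = 0.0437), and of 10 sensors and adaptors none was called. In the interferon gamma lists, the receptor chain Ifngr2 rose (1.83 ± 0.16, adjusted p = 0.0175), while Cxcl10 (-3.71 ± 0.34, adjusted p = 0.0191) and Tap1 (-0.55 ± 0.09, adjusted p = 0.0479) fell. Cxcl10 rests on 11 and 7 UMIs in BALB/c, against 93 and 457 UMIs in B6.

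Of 10 dissociation genes, Hspa1a and Hspa1b rose in BALB/c (edgeR adjusted p = 0.0285 and 0.0311). The heat shock gene Hspa1a had 75.3 and 160 CPM in BALB/c, against 9.16 and 6.53 CPM in B6, a log2 fold change of 3.97 ± 0.47. Within subsets, 4 of 9 tested were higher in BALB/c in iNKT1-like, 3 of 9 in iNKT2-like and 4 of 9 in iNKT17-like cells, and none was lower. The shares of all genes higher were 2.12%, 4.89% and 2.39%. Hspa1a, Hspa1b and Dnajb1 were called in each subset, and Hsp90aa1 in iNKT1-like and iNKT17-like cells. The log2 fold change of Hspa1a was 4.43, 4.03 and 5.75 in the 3 subsets. The summed level of the 10 was 1167 and 1835 CPM in responding BALB/c cells and 847 and 1242 CPM in responding B6 cells, against 1279 and 1756 CPM in the other BALB/c cells and 805 and 1295 CPM in the other B6 cells. In both kinds of cell the sum overlapped between strains, and it had no common direction between responding and other cells. Dusp1, Fos, Junb and Jun of the same list had log2 fold changes of -1.91, -0.67, -0.62 and -0.51 in all kept cells and were not called. The part of these 10 genes in the strain difference was not tested.

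Genes outside the list that were most like it were ranked by the ratio of responding to other cells. Iigp1, an immunity GTPase, led with a geometric mean of 8.42 over the 4 libraries, with ratios of 5.91 and 7.30 in BALB/c, against 9.87 and 11.8 in B6. Oasl1 followed with 7.14, Gbp6 with 5.64, Phf11c with 5.47, Ddx60 with 4.61 and H2-T24 with 4.09. Ly6a, a surface protein of activated lymphocytes, had 3.84, but its level in responding cells was 86.0 and 171 CPM in BALB/c, against 792 and 748 CPM in B6. Trim30a, Oas3 and Trafd1 had 3.62, 3.59 and 3.55.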

How the data were processed

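Raw UMI counts per gene and barcode, with no normalization, were deposited by the authors as 1 matrix a library. Genome mm10, of B6 origin, and Cell Ranger 7.1.0 are named in the submitters' processing notes; Cell Ranger 6.0.0 is named for 3 libraries and 7.1.0 for B6 replicate 2, per the file headers. The handling of intron reads was not given in the sources used. The part of the version, or of mapping BALB/c reads to a B6 genome, in any difference was not tested.

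Cells needed 500 genes, 1000 UMIs and at most 10% mitochondrial UMIs. Also removed were the barcodes with the highest Scrublet scores (0.8% per 1000 barcodes; 33 and 34 in BALB/c, 50 and 758 in B6). Kept cells were clustered with scanpy 1.11.5 (2000 variable genes without interferon genes, 30 principal components, 15 neighbours, Leiden resolution 1.0) and clusters were named from marker lists, so classes may differ from the study's. A cluster name needed a mean log2 fold of its markers of 0.3, 40% of them above 0.5, and a lead of 0.3 over the next class.

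UMIs were summed per library, because cells are not replicates, and tested with edgeR 4.0.16 (TMM, filterByExpr, quasi-likelihood test, Benjamini-Hochberg adjustment over all genes tested, threshold 0.05); DESeq2 1.42.0 was an alternative. CPM is scaled to the UMIs of the cells named. SE was taken as the size of the log2 fold change over the root of the F value. On simulated counts for all kept cells (12882 genes), edgeR recovered 95 of 100 genes changed 4-fold and 31 of 100 changed 2-fold. Binomial intervals (95%, exact) and the limit that a count of 0 allows (3 counts) cover counting error only.

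The members, lists and rules were chosen with earlier results of these data known. Named by rule were Isg15, Ifit1, Ifit3, Rsad2, Irf7, Usp18, Bst2, Stat2, Irf9 and Irf1, up to 12 called members per comparison, up to 3 genes per pathway list and the 10 genes most like the members, at 20 CPM or more in responding cells; other members named in the text were chosen after their values were seen.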

Additional observations from a re-analysis of the deposited data

Results flagged for a closer look

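For 7 members the strain effect (log2 fold change, BALB/c over B6) differed between iNKT1-like and iNKT2-like cells by the test of that difference. The difference, iNKT1-like minus iNKT2-like, was 0.618 for Irf7, 0.565 for Ifit1, 0.812 for Slfn5, 0.461 for Phf11b, 0.377 for Isg20, 0.317 for Lgals9 and -0.377 for Samd9l. For the first 6 the BALB/c level was further below B6 in iNKT2-like cells. For Samd9l, which was called in neither subset, the log2 fold change was 0.15 in iNKT1-like and 0.48 in iNKT2-like cells. Different clusters held these subsets in B6 replicate 2 and in the other libraries, and their part in the differences was not tested. Phf11b shares 26.0% of its 50-base transcript windows with Phf11a, so its counts are uncertain.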

How the results depend on the processing

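The labels do not pair the libraries, and deviations of same-numbered libraries correlated at -0.266 over 2 pairs. With a replicate block, edgeR called 0 members in all kept cells, 1 without responding cells and 7 in iNKT1-like cells, in place of 11, 4 and 2. The crossed pairing, added after the data were seen, called 8 in iNKT1-like cells, 9 in all kept cells and 4 without responding cells. DESeq2 called 13 members without responding cells, 0 in iNKT17-like cells and 1 difference between subsets. Without a filter on low counts, 14 members were called in iNKT1-like cells, 25 in iNKT2-like cells and 13 in responding cells. Swapping the caller list gave 7 without responding cells, keeping interferon genes in the clustering gave 1 in iNKT1-like cells, and leaving out responding cells gave 10 in iNKT2-like and 0 in iNKT17-like cells. Leaving out 1 library at a time, where a lone library is taken to be as variable as the opposite strain, gave 0 to 31 calls in all kept cells, 0 to 17 without responding cells, 0 to 28 in iNKT1-like, 2 to 33 in iNKT2-like and 0 to 3 in iNKT17-like cells, 3 to 10 differences between subsets and 0 to 16 calls in responding cells. The difference in responding share (BALB/c minus B6) was -7.574 to -3.963 points with 1 library left out, and 0.63 points without thinning (31.792% in BALB/c and 31.163% in B6). For iNKT17-like cells it was 0.937 points, but -1.704 with subsets by marker score, -0.185 at 2 or more callers and -4.466 to 6.341 with 1 library left out. Of single genes, Isg15 and Stat2 turned to 0.103 and 0.081 without B6 replicate 2 (lowest -0.303 and -0.162, without B6 replicate 1), Irf1 to 0.034 with subsets weighted equally, and Socs1 to -0.272 in iNKT2-like cells by marker score. The cause was not tested. Over all settings, members and other pathway genes together, 827 gene values kept their direction and call, 263 lost the call, 4 gained it and 4 reversed. Values with subsets weighted equally had no test, so they were judged by direction alone.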
